A study of Mus musculus with 4 samples.

Results

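The 10 genes described here encode amino acid transporters of the solute carrier families SLC1, SLC3, SLC7, SLC38 and SLC43. They were taken by symbol from a table of 22079 gene identifiers, and all 10 (Slc1a4, Slc1a5, Slc3a2, Slc7a1, Slc7a2, Slc7a5, Slc38a2, Slc38a3, Slc38a4 and Slc43a1) were found. RNA had been sequenced from mouse primary hepatocytes, liver parenchymal cells placed in culture, in 2 libraries from wild-type mice (WT 1 and WT 2) and 2 from mice without functional Prom1, genotype Prom1-/- (KO 1 and KO 2). Every mouse was a C57BL/6 male of 8 weeks, and the cells of both genotypes attached for 4 hours in medium with 10% serum, 23 mM HEPES and 10 nM dexamethasone, after which they spent a night in medium without serum. The labels call the replicates biological and do not say which part of Prom1 is missing. The comparison asks what the absence of Prom1, a cholesterol-binding membrane glycoprotein, changes in hepatocyte RNA.

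Amino acids cross the hepatocyte membrane through carriers with overlapping substrates. System A and System N carriers of the SLC38 family couple uptake of alanine, glutamine and other neutral amino acids to sodium, the cationic carriers Slc7a1 and Slc7a2 bring in arginine and lysine, and System L carriers exchange or release leucine and other large neutral amino acids. Slc7a5 works only when joined to the heavy chain Slc3a2, which takes the catalytic light chain to the cell surface. Several of these genes are textbook targets of the amino acid response, in which the kinase GCN2 and the transcription factor ATF4 raise transporter and biosynthesis genes when amino acids are short.

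Hepatocyte markers were abundant in the 4 libraries, with Apoa1 between 5505 and 6228 and Ttr between 1367 and 1884 FPKM (sequenced fragments divided by transcript length in kilobases and by library depth). Alb was listed at 0 in WT 2 against 25551 to 32670 FPKM in the other libraries. A 0 in this table can therefore be a failed estimate. Of the 12 hepatocyte markers, 8 had lower values in KO and 4 had higher values, Alb with its 0 among the 4. Prom1 itself had 0.571 and 1.22 FPKM in the WT libraries, while KO 1 listed it at 0 and KO 2 held 0.0458 FPKM. Averaging under 1 FPKM, Prom1 was not among the genes tested below. In a limma fit over the 15152 genes above 0 in any library, its log2 difference was -0.87 (adjusted p = 0.755). The lowest steps of the values put the libraries at about 15500000 to 19800000 fragments. Endothelial and stellate cell markers differed most between the KO libraries: the summed FPKM of 12 sinusoidal endothelial markers was 89.0 in KO 1 and 46.1 in KO 2, with WT values of 62.8 and 60.8, and that of 12 stellate and fibroblast markers was 26.3 in KO 1 and 11.8 in KO 2, with WT values of 15.3 and 17.2. Of the 12 stellate and fibroblast markers only 3 averaged at least 1 FPKM, 2 of them higher and 1 lower in KO. Dcn alone stood at 17.5 FPKM in KO 1 and 7.02 FPKM in KO 2, with WT values of 8.31 and 8.39. In bulk RNA, fewer cells of a type and less RNA per cell cannot be told apart.

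No transporter gene of the 10 passed the test between genotypes. By limma, 0 of 10 had a Benjamini-Hochberg adjusted p under 0.05 over the 10407 genes tested (those with a mean of at least 1 FPKM), as did 0 of all genes (0%; 759 at an unadjusted p under 0.05), and the lowest adjusted p among the 10 was 0.540. At an unadjusted p under 0.05 there were 2 of 10, beside 7.29% of all genes. Both, Slc1a4 and Slc7a5, had higher values in KO (3.1% of all genes in that direction), and 0 had lower values (4.19%). The exact permutation test of 2 libraries against 2 cannot go below a two-sided p of 0.333. The directions below are therefore descriptions of 4 libraries.

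With that limit, 7 of the 10 genes had a higher mean log2(FPKM + 1) in KO and 3 a lower one, with a median log2 difference of 0.23, beside -0.0011 and 49.7% higher over all genes tested. For 3 genes (18.3% of all genes), Slc1a4, Slc3a2 and Slc7a5, each KO library exceeded each WT library. Each fell short of each WT library for 2 (19.8% of all genes), Slc7a2 and Slc38a4. These 5 of 10 stand beside 38.1% of all genes with libraries apart in either direction. KO 2 carried much of the excess: without KO 2 the split was 5 higher and 5 lower with a median of -0.024, and without KO 1 it was 8 and 2 with a median of 0.45.

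**Figure D1:**
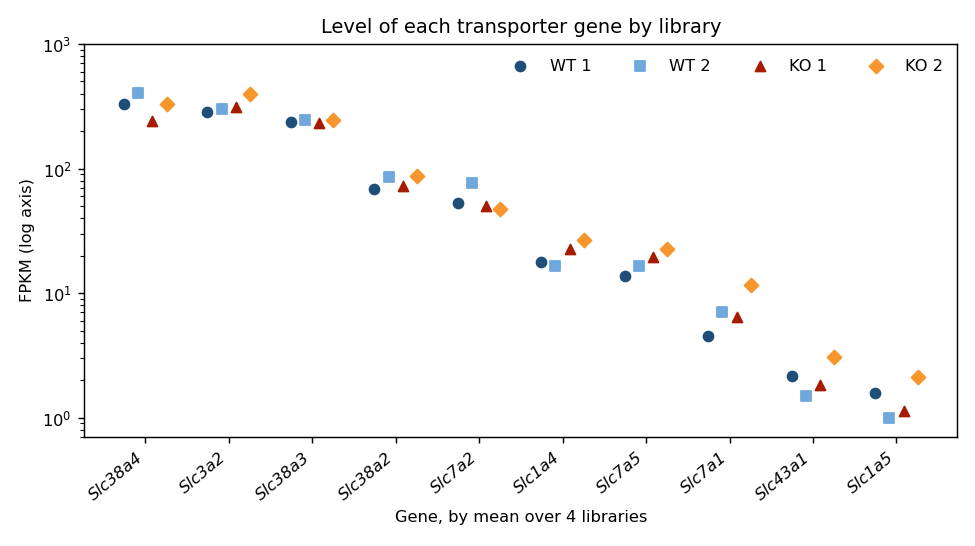
Level of each of the 10 transporter genes in FPKM (log axis) in the 4 libraries, ordered by the mean. Slc38a4, Slc3a2 and Slc38a3 lie between 232 and 401 FPKM in every library, while Slc43a1 and Slc1a5 lie between 0.999 and 3.06 FPKM.

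The levels, which FPKM makes comparable per transcript length, spanned more than 2 orders of magnitude. Slc38a4 (mean 325 FPKM), Slc3a2 (323 FPKM) and Slc38a3 (240 FPKM) led, all above the 97th percentile of the genes tested, and together made up 81.8% to 84.2% of the summed FPKM of the 10. Slc38a2 (78.7 FPKM) and Slc7a2 (56.5 FPKM) followed, then Slc1a4 (20.9 FPKM), Slc7a5 (18.1 FPKM), Slc7a1 (7.37 FPKM), Slc43a1 (2.13 FPKM) and Slc1a5 (1.46 FPKM). The order was not fixed for every neighbour: the ranges over libraries overlapped for Slc38a4 with Slc3a2, for Slc38a2 with Slc7a2, for Slc1a4 with Slc7a5 and for Slc43a1 with Slc1a5. Within single libraries Slc38a4 exceeded Slc3a2 in 2 of 4 and Slc1a4 exceeded Slc7a5 in 3 of 4, while Slc38a2 exceeded Slc7a2 and Slc43a1 exceeded Slc1a5 in 4 of 4. The summed FPKM of the 10 was 1015 and 1149 in WT and 956 and 1172 in KO, so the genotypes overlapped in the total.

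The SLC38 carriers held the largest part of that total. Slc38a4, a sodium-coupled carrier of neutral amino acids that is characteristic of liver (ENSMUSG00000022464, minus strand of chromosome 15, 96994820 to 97055956 in mm10), stood at 330.0 and 401 FPKM in the WT libraries, against 240 and 329 FPKM in the KO libraries. WT 2 was highest and KO 1 lowest, and KO 2 lay just under WT 1. The log2 difference was -0.37 (SE 0.19, limma adjusted p = 0.720). Leaving out KO 1 gave -0.14, WT 2 gave -0.23, WT 1 gave -0.51 and KO 2 gave -0.60. After rescaling to a common median the KO libraries no longer lay apart from WT.

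Slc38a3, the System N carrier that moves glutamine, histidine and asparagine (chromosome 9, 107650634 to 107669530, minus strand), was the steadiest of the 10. It stood at 238 and 244 FPKM in the WT libraries, against 232 and 244 FPKM in the KO libraries, and its highest library exceeded its lowest by 1.05-fold. The log2 difference was -0.020 with a 95% interval from -0.27 to 0.23, and its sign turned with rescaling to a common total or quantile normalization (0.021 and 0.022). Slc38a2, the System A carrier that many cells raise when starved of amino acids (chromosome 15, 96687392 to 96699730, minus strand), stood at 68.4 and 85.7 FPKM in the WT libraries, against 73.1 and 87.8 FPKM in the KO libraries. The groups overlapped, with a log2 difference of 0.06 and a 95% interval from -0.31 to 0.43.

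The cationic carriers had opposite directions. Slc7a2, the main cationic carrier of liver (ENSMUSG00000031596, chromosome 8, 40862396 to 40922308, plus strand), stood at 52.7 and 76.4 FPKM in the WT libraries, against 49.8 and 47.0 FPKM in the KO libraries. Both KO libraries were below both WT libraries, but WT 2 alone was far above the other 3. The log2 difference was -0.38 (SE 0.18, limma adjusted p = 0.703), and it was -0.12 without WT 2 and -0.65 without WT 1. Its exons overlap those of the antisense gene Gm26584, which has no row in the table, and the strand setting of the quantification is not given in the sources used here.

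Slc7a1, the more widely expressed cationic carrier (ENSMUSG00000041313, chromosome 5, 148327410 to 148399904, minus strand), stood at 4.52 and 7.03 FPKM in the WT libraries, against 6.39 and 11.5 FPKM in the KO libraries. KO 1 lay between the WT libraries and KO 2 above all of them. Its log2 difference of 0.53 was the largest of the 10 and also had the largest standard error (0.30; limma adjusted p = 0.740). Leaving out KO 2 gave 0.15, WT 1 gave 0.26, WT 2 gave 0.80 and KO 1 gave 0.91.

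**Figure D2:**
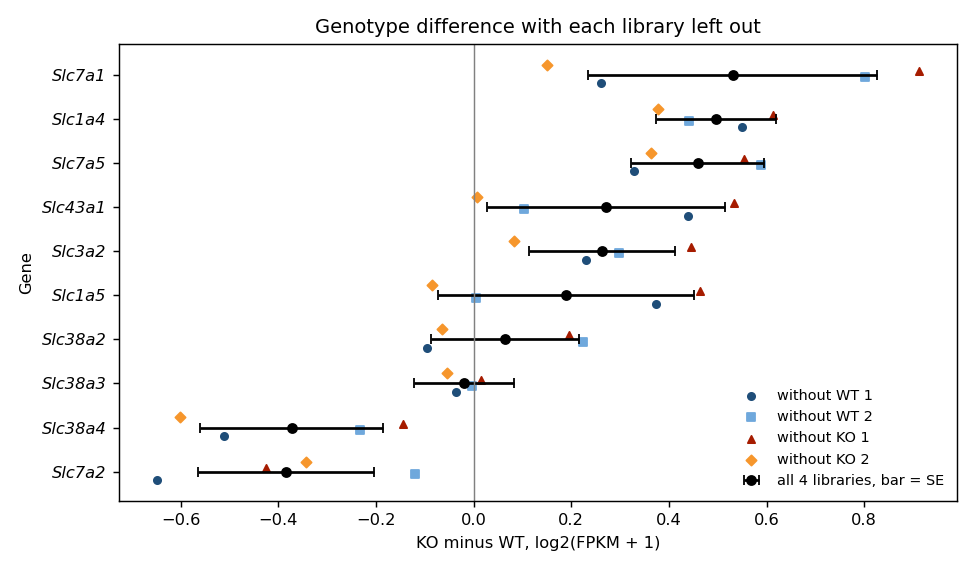
Difference between KO and WT in log2(FPKM + 1) for each gene, with all 4 libraries (black point, bar = SE) and with each library left out (coloured points). Slc1a4 runs from 0.38 to 0.61 and Slc7a5 from 0.33 to 0.59, whereas Slc7a1 runs from 0.15 to 0.91 and Slc38a4 from -0.60 to -0.14.

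Slc7a5 and its partner Slc3a2 were higher in both KO libraries. Slc7a5, the light chain that carries leucine and other large neutral amino acids (ENSMUSG00000040010, chromosome 8, 121881150 to 121907694, minus strand), stood at 13.6 and 16.5 FPKM in the WT libraries, against 19.6 and 22.5 FPKM in the KO libraries. The lower KO library exceeded the higher WT library by 1.19-fold, beside 1.21-fold between the WT libraries. The log2 difference was 0.46 (SE 0.14, 95% interval 0.13 to 0.79, limma adjusted p = 0.586), and it ran from 0.33 to 0.59 with a library left out. Slc7a5 lies within the span of Gm20388 on the other strand, with no shared exon, which reached at most 0.00381 FPKM.

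Slc3a2, the heavy chain also known as CD98 (ENSMUSG00000010095, chromosome 19, 8706882 to 8723369, minus strand), stood at 286 and 299 FPKM in the WT libraries, against 310 and 399 FPKM in the KO libraries. KO 1 exceeded WT 2 by only 1.03-fold, and KO 2 stood apart above the rest. The log2 difference was 0.26 (SE 0.15, limma adjusted p = 0.744), which was 0.082 without KO 2 and 0.45 without KO 1. Slc43a1, a System L carrier that needs no heavy chain (chromosome 2, 84838850 to 84863594, plus strand), stood at 2.15 and 1.50 FPKM in the WT libraries, against 1.82 and 3.06 FPKM in the KO libraries, with overlapping groups (log2 difference 0.27, adjusted p = 0.828). Without KO 2 its difference was 0.0068.

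Of the SLC1 exchangers, Slc1a4 separated the genotypes and Slc1a5 did not. Slc1a4, an exchanger of alanine, serine and cysteine (ENSMUSG00000020142, chromosome 11, 20302180 to 20332713, minus strand), stood at 17.8 and 16.5 FPKM in the WT libraries, against 22.6 and 26.7 FPKM in the KO libraries. The lower KO library exceeded the higher WT library by 1.26-fold, a wider gap than the 1.19-fold between the KO libraries or the 1.08-fold between the WT libraries. The log2 difference was 0.50 (SE 0.12, 95% interval 0.19 to 0.80, limma adjusted p = 0.540) and ran from 0.38 to 0.61 with a library left out. Slc1a4 had the lowest p of the 10, and its adjusted p ran from 0.292 to 0.9999 over the alternatives.

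Slc1a5, the related exchanger that takes up glutamine in many dividing cells (chromosome 7, 16781340 to 16798274, plus strand), stood at 1.58 and 0.999 FPKM in the WT libraries, against 1.14 and 2.13 FPKM in the KO libraries. The groups overlapped (log2 difference 0.19, 95% interval -0.45 to 0.83), and the sign turned without KO 2 (-0.084). Its lowest library rests on an estimated 44.8 fragments, so counting error alone is about 14.9% of that value, and for Slc43a1 it is 11.5%. For the other 8 genes counting error at the lowest library was at most 4.0%, less than the difference between the libraries of either group for each of them, taking the longest coding transcript as the length.

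The promoter sequences of Slc1a4, Slc3a2 and Slc38a4 are shown because their libraries lay apart between the genotypes, upward for the first 2 and downward for the third. RefSeq (build GRCm38.p6) gave start-site windows for 6 of the 10 members, 9 windows in all, and none for Slc1a5, Slc7a2, Slc7a5 and Slc38a3. Each line runs 5′ to 3′ on the gene's strand up to the base before a start site. Capitals mark CCAAT boxes (CCAAT or ATTGG) and GC boxes (GGGCGG or CCGCCC). The windows are chr11:20332714-20332963 for Slc1a4, chr19:8713898-8713960 for Slc3a2, cut to the 63 bases free of annotated exons, and chr15:97055957-97056206 for the most distal Slc38a4 start, all on the minus strand. The Slc3a2 start site, 8713897, lies inside the annotated span of the gene. Of its 9 GENCODE transcripts 0 start within 10 bases of that site, the nearest being 18 bases away.
Slc1a4: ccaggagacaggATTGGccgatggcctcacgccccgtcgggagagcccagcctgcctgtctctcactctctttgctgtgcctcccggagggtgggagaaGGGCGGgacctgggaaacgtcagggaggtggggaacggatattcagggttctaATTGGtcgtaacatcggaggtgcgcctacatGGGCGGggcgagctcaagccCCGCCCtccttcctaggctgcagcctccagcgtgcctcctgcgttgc
Slc3a2: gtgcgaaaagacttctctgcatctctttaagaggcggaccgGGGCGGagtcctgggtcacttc
Slc38a4: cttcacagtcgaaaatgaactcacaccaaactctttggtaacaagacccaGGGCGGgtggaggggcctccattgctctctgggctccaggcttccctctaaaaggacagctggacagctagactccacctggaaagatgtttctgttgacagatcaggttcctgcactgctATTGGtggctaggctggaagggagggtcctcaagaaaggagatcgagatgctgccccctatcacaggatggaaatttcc

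The Slc1a4 window held 2 CCAAT boxes and 3 GC boxes in 250 bases with 64.8% G and C, and the Slc38a4 window shown held 1 of each with 52.8%. The Slc38a4 window at start site 97031213 held 3 CCAAT boxes and 1 GC box, and that at 97020359 held 0 of either. Which start these hepatocytes used was not tested. Over the 32851 windows of the table, cut to the same 250 bases, 33.8% held a CCAAT box and 32.7% a GC box on either strand. The core of the amino acid response element, TGATGNAA or TTNCATCA, was in 0 of the 9 windows of the members and in 3.45% of all windows. That count says only that these letters are not in these windows, and elements in introns or farther upstream were not searched.

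**Figure D3:**
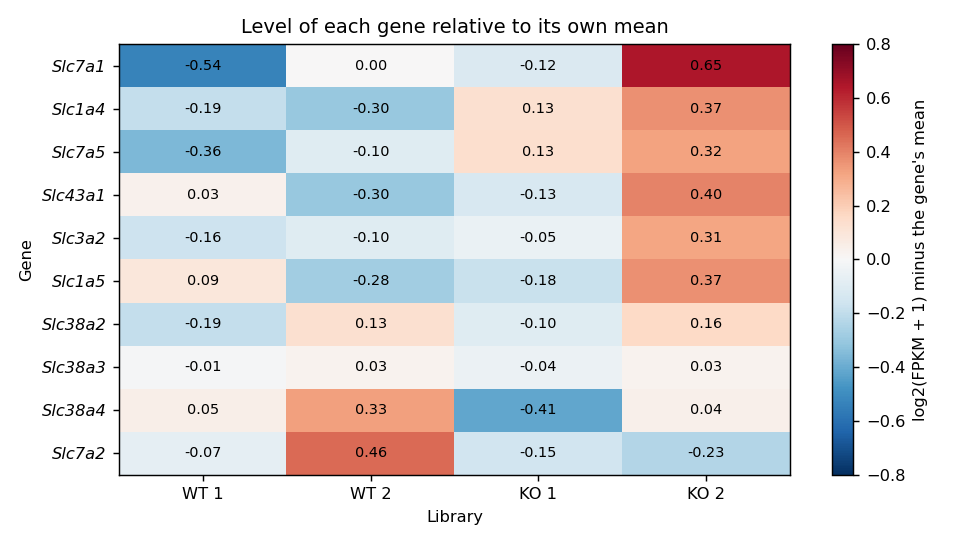
Level of each gene in each library as log2(FPKM + 1) minus the mean of that gene over the 4 libraries, ordered by the difference between KO and WT. The KO 2 column is positive for 9 of the 10 genes and reaches 0.65 for Slc7a1, while Slc38a3 stays within -0.04 and 0.03.

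Grouped by the order of the libraries, 7 of the 10 genes were highest in KO 2, beside 26.3% of all genes tested. Of these, Slc3a2, Slc38a2, Slc7a5 and Slc7a1 were lowest in WT 1, and Slc1a4, Slc43a1 and Slc1a5 were lowest in WT 2. The other 3, Slc38a4, Slc38a3 and Slc7a2, were highest in WT 2, beside 27.7% of all genes. KO 2 exceeded KO 1 for 9 of 10 (53.2% of all genes), Slc7a2 being the exception, and WT 2 exceeded WT 1 for 7 of 10 (49.7%), a count that was 5 to 7 under the other scalings. KO 2 was highest for 7 or 8 of the 10 under rescaling to a common total, a common median or quantile normalization.

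Zonation markers and markers of other cell types also differed between the libraries, not all in the order seen for the transporters. Pericentral hepatocyte markers, genes of the zone around the central vein, were highest in KO 2 for 7 of 11 tested (26.3% of all genes) and in WT 1 for 4 (19.6%). Their median relative log2 level was 0.33 in KO 2 against 0.016 in WT 1, -0.16 in WT 2 and -0.13 in KO 1. In KO 8 of the 11 were higher and 3 lower, with 2 apart upward (18.3% of all genes) and 1 downward (19.8%). By limma 1 was higher (3.1% of all genes) and 1 lower (4.19%) at an unadjusted p under 0.05, and 0 passed at an adjusted p under 0.05. Periportal markers, genes of the zone around the portal vein, were highest in WT 2 for 10 of 15 (27.7% of all genes). Their median was 0.40 in WT 2 against 0.034 in the other WT library, and the medians in KO 1 and KO 2 were -0.36 and -0.085. Between genotypes 13 of the 15 had a negative log2 difference, and the median over the 15 was -0.35. The libraries lay apart downward for 8 (19.8% of all genes) and upward for 1 (18.3%). By limma 5 were lower (4.19% of all genes) and 0 higher (3.1%) at an unadjusted p under 0.05, and 0 passed at an adjusted p under 0.05. Among them Arg1, the arginase of the urea cycle, stood at 93.7 and 167 FPKM (WT) against 37.3 and 73.5 FPKM (KO). Of the 12 hepatocyte markers, 3 were apart downward (19.8% of all genes) and 1 upward (18.3%). By limma 2 were lower (4.19% of all genes) and 0 higher (3.1%) at an unadjusted p under 0.05. None passed at an adjusted p under 0.05. The 2 were Hnf4a, at 90.4 and 95.8 FPKM (WT) against 64.9 and 59.5 FPKM (KO), and Tat. Tat stood at 82.6 and 80.8 FPKM (WT) against 62.5 and 69.8 FPKM (KO). Endothelial markers were highest in KO 1 for 9 of 11 tested (26.4% of all genes) and in KO 2 for 0 (26.3%). No endothelial or stellate marker was listed at 0 in every library. Summed Kupffer cell and macrophage markers ran from 373 to 378 FPKM in WT and from 419 to 493 FPKM in KO. Most of each sum was Cd68 alone (357 and 351 in WT, 393 and 465 in KO). Of the 9 tested, 6 were higher and 3 lower in KO, with 4 apart upward (18.3% of all genes) and 1 downward (19.8%). By limma 2 were higher (3.1% of all genes) and 0 lower (4.19%) at an unadjusted p under 0.05, and 0 passed at an adjusted p under 0.05. The sums of cholangiocyte markers ran from 38.9 to 42.1 in WT and from 29.2 to 42.0 in KO, and those of lymphocyte markers from 0.414 to 0.742 in WT and from 0.707 to 0.996 in KO, with Cd3g, Cd79a and Nkg7 listed at 0 throughout. The part of zonation or of other cells in the transporter levels was not tested.

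Ratios within a library do not change when a library is rescaled by a constant, and they were formed after the values were seen. Slc7a2 exceeded Slc7a1 by 11.7-fold and 10.9-fold in WT and by 7.80-fold and 4.08-fold in KO. The WT values differed from each other by 1.07-fold and both KO values lay below them. The summed FPKM of the 2 cationic carriers overlapped, at 57.2 and 83.5 in WT and 56.2 and 58.6 in KO. Slc38a4 exceeded Slc38a2 by 4.82-fold and 4.68-fold in WT and by 3.28-fold and 3.75-fold in KO, again apart. It exceeded Slc38a3 by 1.38-fold and 1.64-fold in WT and 1.03-fold and 1.35-fold in KO, also apart. The ratio of Slc38a3 to Slc38a2 overlapped between the genotypes.

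The heavy chain was in excess over its light chains in every library. Slc3a2 exceeded Slc7a5 by 21.0-fold and 18.1-fold in WT and by 15.8-fold and 17.7-fold in KO, with both KO values below both WT values. It exceeded the sum of 6 light chain genes (Slc7a5, Slc7a6, Slc7a7, Slc7a8, Slc7a10 and Slc7a11) by 10.7-fold and 10.2-fold in WT and 7.83-fold and 10.9-fold in KO. The summed light chains stood at 26.6 and 29.3 FPKM in the WT libraries, against 39.5 and 36.4 FPKM in the KO libraries. The genotypes thus lay apart in that sum, while the ratio of Slc3a2 to it overlapped. Slc1a4 exceeded Slc1a5 by 11.3-fold and 16.5-fold in WT and 19.7-fold and 12.5-fold in KO, and Slc7a5 exceeded Slc43a1 by 6.34-fold to 11.04-fold over the 4 libraries, both with overlap. For these ratios the exact permutation test cannot go below a two-sided p of 0.333.

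**Figure D4:**
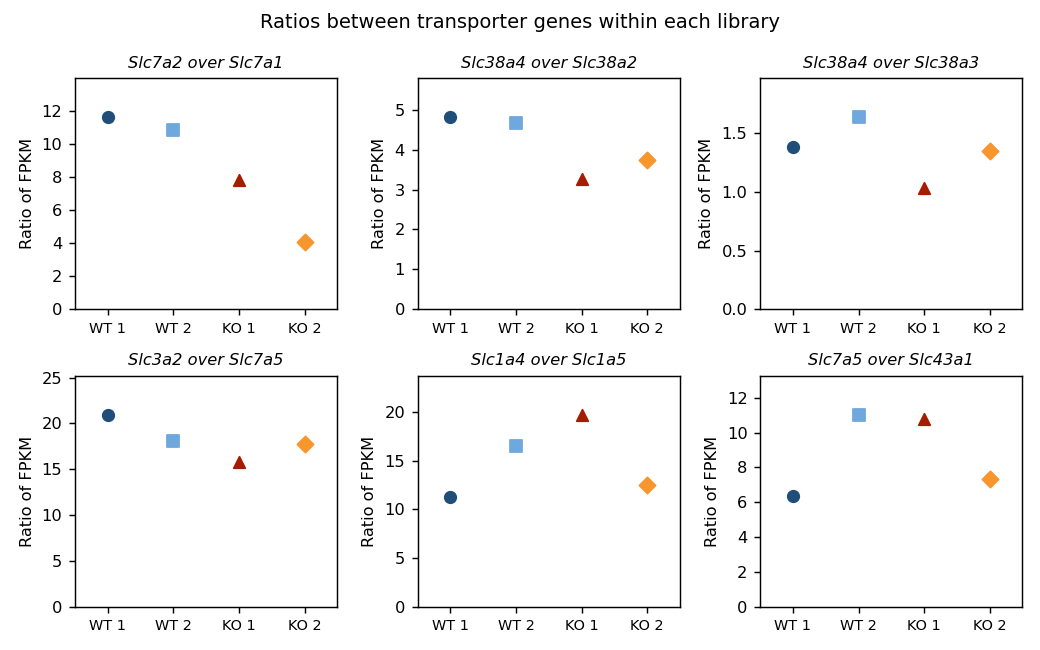
Ratio of FPKM between 2 transporter genes in each library, axes starting at 0. Slc7a2 over Slc7a1, Slc38a4 over Slc38a2, Slc38a4 over Slc38a3 and Slc3a2 over Slc7a5 are lower in both KO libraries than in both WT libraries. Slc1a4 over Slc1a5 and Slc7a5 over Slc43a1 overlap.

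The other amino acid transporter genes showed a smaller set in use. Of 45 further genes of these and neighbouring families, 18 passed the expression filter, 13 were listed at 0 in all 4 libraries, and the rest reached at most 1.33 FPKM (Slc7a3). Of the 18, 12 were higher and 6 lower in KO (median log2 difference 0.039), 3 lay apart upward (18.3% of all genes) and 3 downward (19.8%), shares near the background. By limma 0 passed at an adjusted p under 0.05, with 2 higher (3.1% of all genes) and 1 lower (4.19%) at an unadjusted p under 0.05. Slc6a6, the taurine carrier, was the most abundant at 90.3 and 106 FPKM (WT) against 85.3 and 117 FPKM (KO). Slc6a12, which carries betaine and GABA, had the lowest log2 difference of the 18: 56.9 and 62.6 FPKM (WT) against 36.7 and 45.9 FPKM (KO) (log2 difference -0.53, limma adjusted p = 0.548). Slc7a7, a light chain that pairs with Slc3a2 and exports cationic amino acids, had the highest log2 difference: 3.35 and 3.79 FPKM (WT) against 5.90 and 5.05 FPKM (KO) (0.50, limma adjusted p = 0.586). Slc6a9, a glycine carrier, stood at 56.6 and 54.5 FPKM (WT) against 63.3 and 75.2 FPKM (KO) (0.31, limma adjusted p = 0.664). Slc16a10, an aromatic amino acid carrier, differed by -0.25 and Slc38a10 by 0.11, with adjusted p of 0.724 and 0.822 by limma and libraries apart in both.

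**Figure D5:**
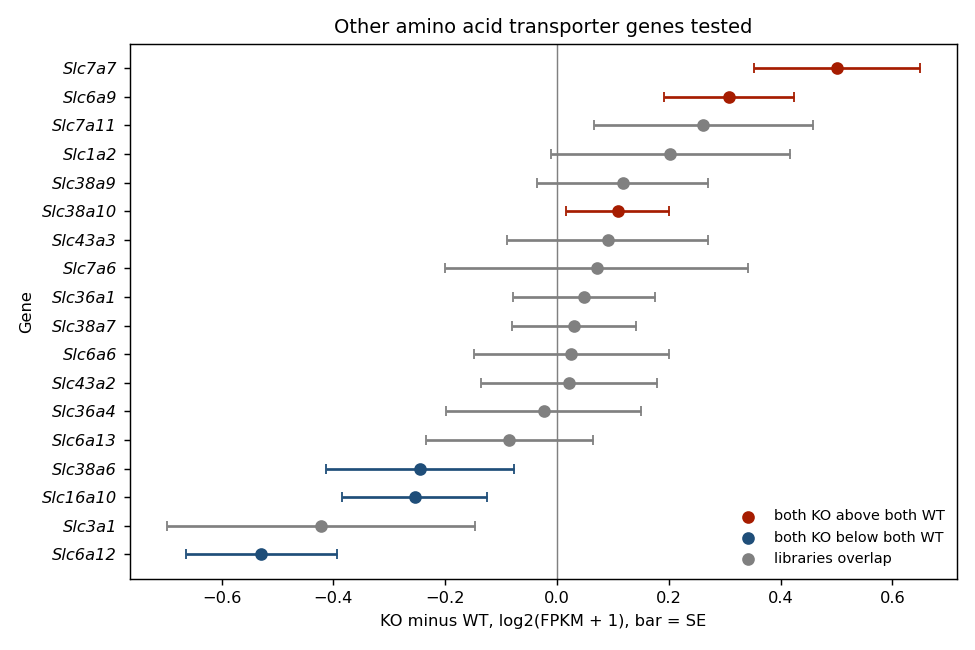
Difference between KO and WT in log2(FPKM + 1), with its SE, for the 18 other amino acid transporter genes that passed the expression filter. Slc7a7, Slc6a9 and Slc38a10 lie above WT in both KO libraries, and Slc6a12, Slc16a10 and Slc38a6 lie below it in both.

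Genes of the amino acid response, read beside the transporters, had higher values more often than lower ones. Of 26 genes in that list 24 were tested, 16 higher and 8 lower in KO (median log2 difference 0.21). The KO libraries lay apart upward for 10 (18.3% of all genes) and downward for 4 (19.8%), and by limma 0 passed at an adjusted p under 0.05, with 8 higher (3.1% of all genes) and 2 lower (4.19%) at an unadjusted p under 0.05. Pck2, the mitochondrial phosphoenolpyruvate carboxykinase, stood at 13.5 and 8.80 FPKM (WT) against 22.2 and 21.5 FPKM (KO) (0.94, adjusted p = 0.518), and the serine synthesis gene Psph at 16.9 and 13.7 FPKM (WT) against 21.7 and 20.6 FPKM (KO) (0.45, adjusted p = 0.570). Psat1 of the same pathway differed by 0.57 and the serine hydroxymethyltransferase gene Shmt2, which overlaps Ndufa4l2 on the opposite strand, by -0.47. Atf4 itself stood at 155 and 163 FPKM in the WT libraries, against 152 and 171 FPKM in the KO libraries, and the groups overlapped. KO 2 was the highest library for 9 of the 24 (26.3% of all genes) and KO 1 for 7 (26.4%). In the values as deposited, 0 of the 10 transporters were highest in KO 1.

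Genes of amino acid sensing by mTORC1 and GCN2, parts of both among them, had lower values more often. Of 33 genes listed 32 were in the table and 30 were tested, 11 higher and 19 lower in KO (median log2 difference -0.076). The libraries lay apart upward for 3 (18.3% of all genes) and downward for 11 (19.8%), and 0 passed the limma test at an adjusted p under 0.05, with 3 lower (4.19% of all genes) and 0 higher (3.1%) at an unadjusted p under 0.05. The leucine-responsive sestrin family gene Sesn1 stood at 3.02 and 4.55 FPKM (WT) against 2.19 and 2.34 FPKM (KO) (-0.53, limma adjusted p = 0.664). Flcn, which acts on the Rag GTPases, stood at 21.3 and 25.8 FPKM (WT) against 17.3 and 18.3 FPKM (KO) (-0.38, limma adjusted p = 0.610). Its partner Fnip1 differed by -0.29 and the Rag GTPase gene Rragc by -0.22. Over the 30 genes, 10 were highest in WT 2 (27.7% of all genes) and 8 in WT 1 (19.6%).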

How the data were processed

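The authors deposited 1 value per gene and library, read here as FPKM because Cufflinks and Cuffdiff 2.2.1 appear, with STAR 2.5.0 and build mm10, in the submitters' processing notes, and the values are not whole numbers. No header states the unit, and neither the annotation nor the strand handling is given in the sources used here. Of 22079 identifiers, 21984 were matched to GENCODE M21 symbols, which annotate the same build. Values were transformed as log2(FPKM + 1), so a difference is on that scale and understates the change of low genes. The 10407 genes averaging 1 FPKM or more over the libraries were compared with limma 3.58.1 in R 4.3.3 (eBayes with an intensity trend), two-sided, genotype the only term, Benjamini-Hochberg adjusted over all of them. The fit was tested on simulated data. Depth was estimated from the lowest values of genes with 1 annotated transcript, assuming fragments of 200 bases. Intervals and fragment numbers cover counting error or library spread only, as stated. The named genes are the 10 members and the 4 most abundant other transporters. Also named are the 4 genes of lowest p of each of the other 3 lists that are not cell type or zonation markers. Arg1, Cd68, Dcn, Atf4, Apoa1, Ttr, Hnf4a, Tat, Slc38a6, Slc7a3 and the light chains were named after their values were seen. The members and lists were chosen with earlier results of these data known. Alternatives were other pseudocounts, filters and scalings, no trend, a replicate block and leaving out each library.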

Additional observations from a re-analysis of the deposited data

How the results depend on the processing

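With 2 libraries per genotype, single libraries limited every statement. In every alternative that kept all 4 libraries, 0 transporter members had an adjusted p under 0.05. At an unadjusted limma p under 0.05 there were 2 to 4 members, and the count over all genes moved too. It was 4 members beside 1054 of 10407 genes with the replicate block and 4 beside 793 under quantile normalization. Rescaling to a common total gave 3 beside 699, and the main fit gave 2 beside 759. The count over all genes ran from 0 to 8 with a library left out (8 without WT 1, 5 without KO 1) and was 0 in the other alternatives. The median log2 difference of the members ran from -0.024 to 0.45 with a library left out. Slc1a5 then ran from -0.084 to 0.46, Slc38a2 from -0.096 to 0.22 and Slc38a3 from -0.055 to 0.015, each changing sign, and Slc38a3 was also 0.021 under rescaling to a common total and 0.022 under quantile normalization. The other 7 members kept their sign in every alternative that tested them; Slc1a5 and Slc43a1 drop out under a filter at 5 FPKM. The labels give both genotypes the numbers 1 and 2 without saying what they share, and the deviations of WT 1 and KO 1 from their group means correlated at 0.151 over 10407 genes. With the number as a replicate block, 0 members and 0 of all genes passed; in this balanced layout the block cannot change a log2 difference, so the median of 0.23 was the same by construction. The cause of these changes was not tested. The median log2 difference of all genes was -0.0011 as deposited and 0.035 after rescaling to a common total, the farthest of the 3 scalings from it.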
